A study of Rattus norvegicus with 6 samples.

Results

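The genes described here are 7 markers of reactive glia, 4 of astrocytes (Gfap, Vim, Aqp4 and S100b) and 3 of microglia (Aif1, Cd68 and Itgam), among the 32552 annotated genes counted in rat striatum. They were chosen by identifier for their role, by a rule that used no measured value, although earlier results of these data were known. A row was kept only where its chromosome was the one given for the gene, which held for 7 of 7. The striatum came from male Sprague-Dawley rats. The 3 control samples, numbered 1, 2 and 4 in the labels, came from rats injected into the peritoneal cavity with 0.9% NaCl. The 3 Mn-exposed samples, numbered 13, 14 and 17, came from rats given MnCl2 at 25 mg/kg by the same route, in a treatment of 15 days. The labels state neither the rats' age nor that each sample was a separate rat, so a p-value here reflects variation among the samples as labelled.

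Astrocytes maintain the ionic and metabolic environment of neurons, and in injured tissue many of them thicken their processes and raise intermediate filament proteins, a state called reactive astrogliosis. Microglia are the resident macrophages of the brain, and when activated they take up debris and raise lysosomal and adhesion proteins. Manganese accumulates in the basal ganglia, of which the striatum is the input nucleus, and astrocytes are a known site of its uptake. Gfap and Vim encode the filament proteins GFAP and vimentin. Aqp4 encodes the water channel of astrocyte endfeet and S100b a small calcium-binding protein of astrocytes that some oligodendrocyte-lineage cells also make. Aif1 encodes the calcium-binding protein also called IBA1, Cd68 a lysosomal membrane glycoprotein, and Itgam the integrin subunit CD11b.

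The upstream sequences of Gfap, Vim and S100b are shown because Gfap is the classical reactivity gene and the ratio of Vim to S100b differed most between the groups among the 21 ratios of members described here. Each is the 250 bases before the annotated start, 5′ to 3′ on the gene's strand, from RefSeq on GRCr8, a later build than the Rnor_6.0 of the counts. Capitals mark matches, on either strand, to the 5 motifs searched. These were a STAT-type site (TTCNNNGAA), an AP-1-type site (TGANTCA) and an ETS-type site (GAGGAAG, these 7 letters only). The others were the TATA box as TATAAA and the CCAAT box by its 5 letters, with overlaps allowed.
Gfap (chr10:88361662-88361911, minus strand, GRCr8): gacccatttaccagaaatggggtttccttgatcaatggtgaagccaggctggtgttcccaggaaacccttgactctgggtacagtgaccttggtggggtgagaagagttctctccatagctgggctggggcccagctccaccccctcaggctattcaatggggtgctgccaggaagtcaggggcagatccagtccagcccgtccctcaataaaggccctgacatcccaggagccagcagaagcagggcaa
Vim (chr17:81577011-81577260, plus strand, GRCr8): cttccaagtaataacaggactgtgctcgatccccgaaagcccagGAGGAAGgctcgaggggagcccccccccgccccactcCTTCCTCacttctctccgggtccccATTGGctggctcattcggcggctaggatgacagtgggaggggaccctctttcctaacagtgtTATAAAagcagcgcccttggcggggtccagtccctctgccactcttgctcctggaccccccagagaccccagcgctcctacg
S100b (chr20:12381082-12381331, minus strand, GRCr8): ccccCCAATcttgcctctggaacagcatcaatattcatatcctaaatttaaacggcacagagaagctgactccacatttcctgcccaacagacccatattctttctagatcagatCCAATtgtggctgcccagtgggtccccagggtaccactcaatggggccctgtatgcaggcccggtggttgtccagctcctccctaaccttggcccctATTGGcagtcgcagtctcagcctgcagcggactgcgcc
Vim held 2 matches to the ETS-type site, 1 to the TATA box and 1 to the CCAAT box. Of 33469 upstream windows of this length, 10.2%, 12.9% and 34%, in that order, held at least 1 match. The Vim TATA box began 82 bases before the start. S100b held 3 matches to the CCAAT box, and Gfap held no match to these letters in this window. Of the other members, Cd68 held 2 matches to the AP-1-type site (at least 1 in 6.34% of windows). Itgam held 2 to the ETS-type site and 1 to the STAT-type site (at least 1 in 7.67%). A match describes letters only.

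Positions are those of the Rnor_6.0 annotation in the files. Gfap (ENSRNOG00000002919) is on chromosome 10, minus strand, at 90990762 to 90999506, and has 10 merged exons of 3661 bases in all. Vim (ENSRNOG00000018087) is on chromosome 17, plus strand, at 80882666 to 80891212, with 9 exons. Aqp4 (ENSRNOG00000016043) is on chromosome 18, minus strand, at 6765945 to 6782996, with 6 exons. S100b (ENSRNOG00000001295) and Aif1 (ENSRNOG00000000853) are both on the minus strand of chromosome 20, S100b at 13130636 to 13142856 with 3 exons and Aif1 at 5161333 to 5166448 with 7. Cd68 (ENSRNOG00000037563) is on chromosome 10, minus strand, at 56268720 to 56270640, with 6 exons. In RefSeq all 7 symbols lay on the same chromosome as in the files, and the strand was the same for the 6 that had an upstream entry. None of the 7 shared an exonic base with another annotated gene.

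The identifier given for Itgam (ENSRNOG00000019728, chromosome 1, plus strand, 199495298 to 199623960) covers more than that gene. Its 60 merged exons form 2 blocks of 30, with 3585 and 3848 exonic bases, separated by 50731 bases that hold another annotated gene. The first block spans 49995 bases, next to a RefSeq Itgam of 50452 bases, and the second spans 27937 bases. RefSeq lists Itgax, of 31063 bases, and Itgad, of 28661 bases, in that order after Itgam on the chromosome. Its count therefore joins reads of both blocks, which cannot be separated, and is called the Itgam gene model here.

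**Figure D1:**
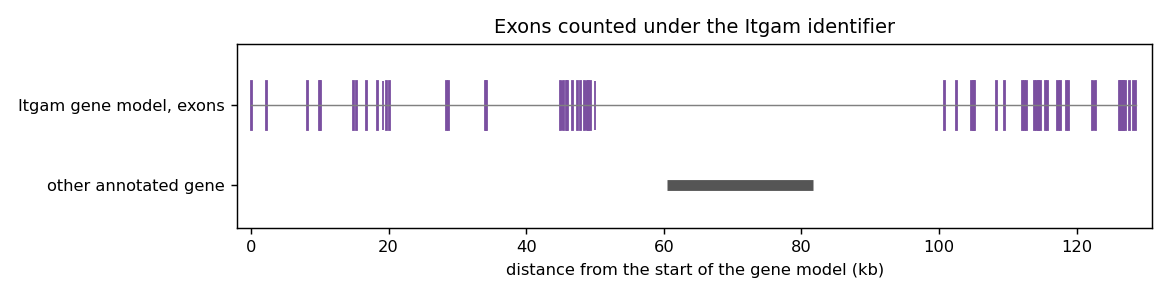
Exons counted under the Itgam identifier (purple bars) against the distance from its start in kb, with the other annotated gene that lies between them (grey bar). The 60 exons form 2 blocks of 30, separated by 50731 bases.

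Libraries held 21754379 to 32569760 counts. Mitochondrial DNA (mtDNA) features took 13.9% to 16.59% of counts in controls and 8.639% to 13.76% in Mn-exposed samples. A principal component over 1000 variable genes, holding 44.7% of their variance, had its highest values in Mn-exposed 14 (34) and 17 (20.4). Its lowest were those of control 1 (-24) and Mn-exposed 13 (-22.6), while control 2 (-6.3) and 4 (-1.51) fell in the middle. Control 1 and Mn-exposed 13 thus stand apart from the other libraries of their groups, and results are given with and without them.

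Levels of the 7 genes differed widely. They are compared as RPKM (reads per kilobase of exon per 1000000 counts), averaged over the 6 libraries. S100b was the highest at 1007 RPKM, with a range over libraries of 766 to 1404. Gfap at 185 (92.1 to 293) and Aqp4 at 127 (91.2 to 167) followed, with ranges that overlapped, and Gfap was above Aqp4 in 4 of 6 libraries. Vim stood at 36.1 (24 to 59) and Aif1 at 10.7 (7.69 to 14.9). The Itgam gene model at 2.33 (1.44 to 3.67) and Cd68 at 1.08 (0.771 to 1.59) were the lowest. Their ranges overlapped, although the Itgam gene model was above Cd68 in 6 of 6 libraries. Among the 15252 genes that passed the filter on low counts, S100b lay at percentile 99.8 of this measure, Gfap at 97.8, Aif1 at 57 and Cd68 at 14.

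No member passed the test between Mn-exposed and control striatum. All 7 passed the low-count filter, and 0 of 7 passed an adjusted p of 0.05 in edgeR's quasi-likelihood test, against a background of 0% of the 15252 genes tested. Their adjusted p ran from 0.68 to 0.948. The astrocyte genes had 3 estimates above 0 and 1 below, with a median log2 fold change (Mn-exposed over control) of 0.11, and the microglia genes 0 above and 3 below, with a median of -0.21. That microglia median is the estimate of the Itgam gene model, which covers more than the Itgam gene. The median of all genes tested was 0.02, and 47.4% of them had estimates below 0. DESeq2, which called 0.543% of the genes it gave an adjusted p, and limma-voom, which called 0%, also called 0 of 7. At an unadjusted edgeR p under 0.05 there were 0 of 7 members, where 7.47% of all genes lay. In bulk tissue, fewer cells of a type and less RNA per cell cannot be told apart. Values per library are CPM (counts per 1000000) with library sizes scaled by the trimmed mean of M-values (TMM).

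**Figure D2:**
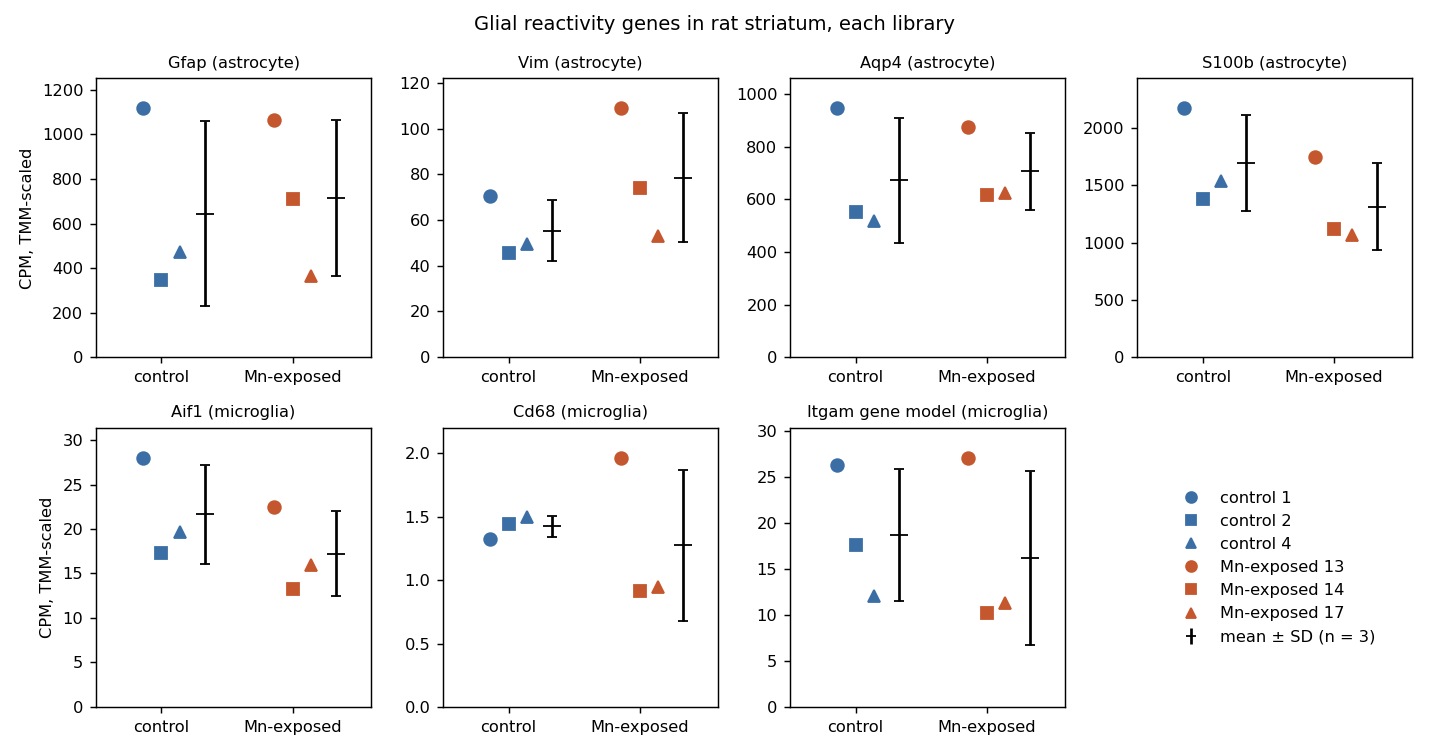
TMM-scaled CPM (y axes, starting at 0) of each gene in the 3 control and 3 Mn-exposed libraries, with the mean and SD of each group in black. In all 7 genes the groups overlap, and the circles, control 1 and Mn-exposed 13, include the highest value of every gene.

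Gfap, the filament gene whose rise is the usual mark of reactive astrocytes, stood at 1117, 345 and 472 CPM in control 1, 2 and 4. In Mn-exposed 13, 14 and 17 it stood at 1065, 710.2 and 364 CPM. Control 1 and Mn-exposed 13 were alike and high, control 2 and Mn-exposed 17 were alike and low, and the groups overlapped fully. The control mean was 645 ± 414 CPM and the Mn-exposed mean 713 ± 350 CPM (SD, n = 3 each). The fitted log2 fold change was 0.14 (SE 0.52, edgeR adjusted p = 0.943), and its 95% interval reached from a fold of 0.469 to 2.6. The estimate turned negative without control 2 (-0.16), control 4 (-0.04) or Mn-exposed 13 (-0.27) and was 0.80 without control 1. Gfap varied 3.24-fold among controls alone, and its SD within groups on the log2 scale, 0.83, was above that of 99.4% of 169 genes of similar level.

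Vim, which encodes the filament protein vimentin of reactive astrocytes and also of vascular cells, had the largest estimate of the 7. It stood at 70.7, 45.7 and 49.6 CPM in control 1, 2 and 4, and at 109, 73.8 and 52.9 CPM in Mn-exposed 13, 14 and 17. The 2 highest values were Mn-exposed and the 2 lowest were controls, with control 1 and Mn-exposed 17 out of order between them. Means were 55.3 ± 13.4 and 78.5 ± 28.3 CPM (SD, n = 3 each), a log2 fold change of 0.50 (SE 0.29, edgeR adjusted p = 0.68; 95% interval -0.17 to 1.18). The estimate stayed above 0 with each library left out, between 0.19 without Mn-exposed 13 and 0.72 without Mn-exposed 17. In none of these 6 fits did Vim pass the adjusted threshold.

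Aqp4, the endfoot water channel, stood at 946, 553 and 517 CPM in control 1, 2 and 4 and at 877, 616 and 625 CPM in the Mn-exposed samples in the order above. Control 1 was the highest, and the other controls were the lowest of the 6. The log2 fold change was 0.07 (SE 0.28, edgeR adjusted p = 0.948; 95% interval -0.58 to 0.72). It turned negative without control 2 (-0.05), control 4 (-0.09) or Mn-exposed 13 (-0.12), and was 0.40 without control 1. In that last fit the groups no longer overlapped for Aqp4, for Vim or for 24.4% of all genes tested.

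S100b, the most abundant of the 7, stood at 2173, 1381 and 1540 CPM in control 1, 2 and 4. In Mn-exposed 13, 14 and 17 it stood at 1750, 1116 and 1071 CPM. Mn-exposed 14 and 17 were the lowest of the 6, while Mn-exposed 13 lay above control 2 and 4. Means were 1698 ± 419 and 1313 ± 380 CPM (SD, n = 3 each), a log2 fold change of -0.37 (SE 0.27, edgeR adjusted p = 0.72; 95% interval of the fold 0.5 to 1.2). The estimate stayed below 0 with each library left out, from -0.64 without Mn-exposed 13 to -0.15 without control 1.

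Aif1, whose protein IBA1 is the common stain for microglia, followed the same order of values as S100b except that the lowest 2 changed places. It stood at 28, 17.3 and 19.6 CPM in control 1, 2 and 4 and at 22.5, 13.3 and 16 CPM in Mn-exposed 13, 14 and 17, from 347 to 590 counts a library. The log2 fold change was -0.33 (SE 0.25, edgeR adjusted p = 0.736; 95% interval -0.93 to 0.27). Like S100b it stayed below 0 with each library left out, from -0.57 without Mn-exposed 13 to -0.10 without control 1.

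Cd68, the lysosomal marker of phagocytic cells, was near the low end of what these libraries can measure, with 24 to 46 counts a library. It stood at 1.33, 1.45 and 1.5 CPM in control 1, 2 and 4, and at 1.96, 0.917 and 0.946 CPM in Mn-exposed 13, 14 and 17. The Mn-exposed samples lay on both sides of the controls, with 1 above all of them and 2 below. Counting error alone gave an exact Poisson 95% interval of 1.42 to 2.65 CPM in Mn-exposed 13 and of 0.587 to 1.36 CPM in Mn-exposed 14. In Mn-exposed 17 it was 0.629 to 1.37 CPM. The intervals of control 1, 2 and 4 were 0.882 to 1.92, 1.06 to 1.93 and 1.05 to 2.07 CPM. Each control interval overlapped that of every Mn-exposed sample, so these counts do not settle the order of Mn-exposed samples against controls. Its log2 fold change was -0.17 (SE 0.37, edgeR adjusted p = 0.9), turning to 0.022 without Mn-exposed 14, 0.01 without Mn-exposed 17 and -0.62 without Mn-exposed 13.

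The Itgam gene model, which CD11b-bearing blood leukocytes would also supply, stood at 26.4, 17.6 and 12.1 CPM in control 1, 2 and 4. In Mn-exposed 13, 14 and 17 it stood at 27.1, 10.2 and 11.3 CPM. Mn-exposed 13 and control 1 were the highest, and Mn-exposed 14 and 17 the lowest. The log2 fold change was -0.21 (SE 0.44, edgeR adjusted p = 0.898). It was -0.80 without Mn-exposed 13, 0.12 without control 1 and 0.05 without Mn-exposed 14. Its SD within groups, 0.67 on the log2 scale, was above that of 96.8% of 2337 genes of similar level.

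**Figure D3:**
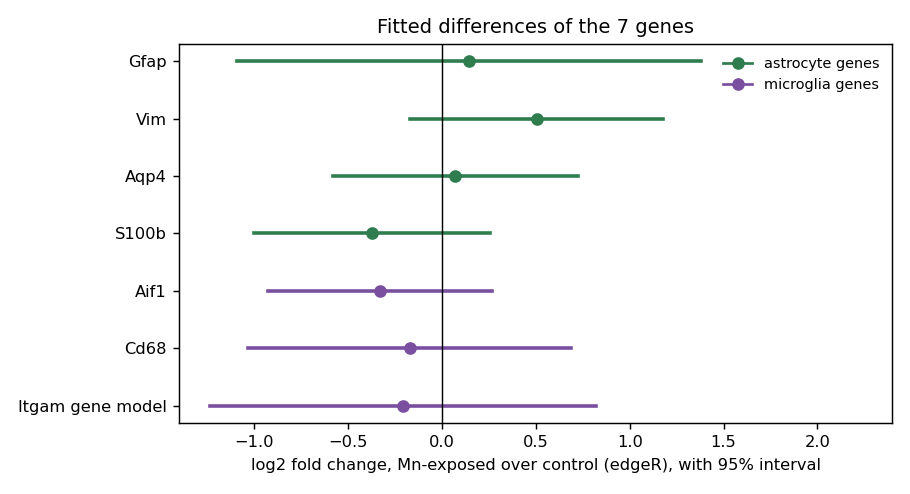
Fitted log2 fold change (x axis, Mn-exposed over control) of each gene with its 95% interval, green for astrocyte and purple for microglia genes. Every interval includes 0, from the widest, of Gfap (-1.09 to 1.38), to that of Aif1 (-0.93 to 0.27).

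The groups overlapped in 7 of 7 genes, so 0 of 7 were separate, where separate groups were found for 12.1% of the genes tested. What the members shared was the libraries in which they were high. The highest CPM of all 7 lay in control 1 or Mn-exposed 13, and in 5 (Gfap, Aqp4, S100b, Aif1 and the Itgam gene model) these libraries held both highest values. Over all genes tested the same libraries held the highest value in 37.6% and both highest in 15.6%. This grouping was singled out after the values were seen and has no test. Within a library the members could differ. In control 1 Gfap was 0.88 above its mean on the log2 scale and Cd68 0.03. In Mn-exposed 14 Gfap was 0.23 above and the 3 microglia genes 0.51 to 0.66 below.

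**Figure D4:**
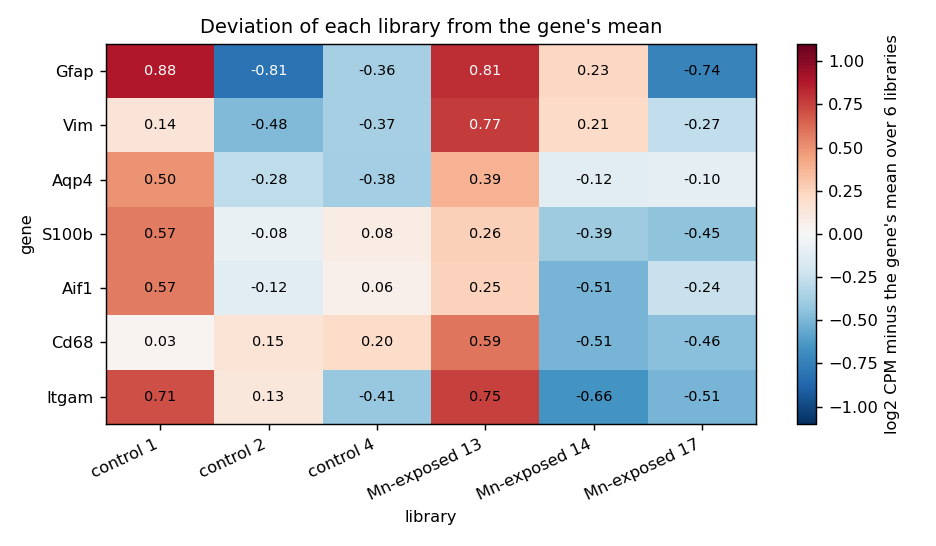
Deviation of each library's log2 CPM from the gene's mean over the 6 libraries (colour and printed value, columns are libraries and rows genes). Mn-exposed 13 is above the mean in all 7 rows, and Mn-exposed 14 is above it for Gfap and Vim and below it for the other 5.

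Without control 1 and Mn-exposed 13 the groups separated for 6 of 7 genes, with Vim and Aqp4 higher and S100b, Aif1, Cd68 and the Itgam gene model lower in Mn-exposed samples. With only 2 libraries a group left, 50.8% of all genes tested did so too. The log2 fold changes were then 0.39 for Vim, 0.19 for Aqp4, -0.44 for S100b, -0.35 for Aif1, -0.67 for Cd68 and -0.48 for the Itgam gene model. The edgeR fit again called 0 of 7, with adjusted p from 0.193 (S100b) to 0.63 (Gfap), and 0.377% of all genes. These libraries had been singled out in an earlier look at the same data.

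The labels number the samples of each group 1 to 3 in their ID, which sets control 1 beside Mn-exposed 13, control 2 beside Mn-exposed 14 and control 4 beside Mn-exposed 17. They state no pairing by litter or day. In deviations from group means, Mn-exposed 14 correlated better with control 4 (0.145) than with control 2 (0.109). Mn-exposed 17 correlated better with control 2 (0.274) than with control 4 (0.227). The paired values below rest on this unstated pairing. Within the ID numbers Vim was higher in the Mn-exposed sample by 0.62, 0.69 and 0.09 on the log2 scale. S100b differed by -0.31, -0.31 and -0.52, and Aif1 by -0.32, -0.39 and -0.30, all lower in the Mn-exposed sample. Gfap differed by -0.07, 1.04 and -0.37 and had no common direction. Nor had Aqp4 (-0.11, 0.15 and 0.27), Cd68 (0.56, -0.66 and -0.66) or the Itgam gene model (0.04, -0.78 and -0.10). The share of all genes with a common direction was not computed. With the number as a block, 3 of 7 members had an unadjusted edgeR p under 0.05 (0.0218 for Vim, 0.0322 for S100b and 0.0198 for Aif1), against 13.9% of all genes tested. The count of calls stayed at 0 of 7, with edgeR adjusted p of 0.307, 0.327 and 0.303 for these genes. DESeq2 with the same block gave an unadjusted p under 0.05 for 2 of 7 (0.0192 for Vim and 0.00689 for S100b, with 0.0596 for Aif1), against 7.49% of all genes. It called 0 of 7 and 1.79% of all genes.

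The ratio of 2 genes within a library does not depend on how libraries are scaled. It separated the groups for some members whose levels did not. Of the 21 pairs of members, 5 had ratios that did not overlap between groups (23.8%), against 13% of all 115999296 pairs of tested genes with a count in every library. All 5 set Vim or Aqp4 against S100b, Aif1 or Cd68 and were higher in Mn-exposed samples, so the pairs share members and are not independent. The two-sided exact permutation p was 0.1 for each, the smallest that 3 samples against 3 can give, and 0.42 adjusted over the 21 pairs. Without control 1 and Mn-exposed 13, 12 pairs separated (57.1%), against 51.3% of all pairs.

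The ratio of the Vim count to the S100b count was 0.0325, 0.0331 and 0.0322 in control 1, 2 and 4, against 0.0622, 0.0662 and 0.0494 in Mn-exposed 13, 14 and 17. The controls were nearly equal, and every Mn-exposed sample was above them. On the log2 scale the difference was 0.85, with an SD of 0.02 among controls and 0.22 among Mn-exposed samples (n = 3 each, two-sided exact permutation p = 0.1). Counting error alone gives an SD of about 0.04 in controls, so the controls were closer than counting error would make them on average. With 1 library left out the difference ran from 0.76 to 0.98.

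The ratio of the Aqp4 count to the S100b count was 0.435, 0.401 and 0.336 in control 1, 2 and 4, against 0.501, 0.552 and 0.583 in the Mn-exposed samples. All Mn-exposed samples were above all controls, by 0.49 on the log2 scale (SD 0.19 and 0.11, n = 3 each, two-sided exact permutation p = 0.1). The ratios of Vim and of Aqp4 to Aif1 differed by 0.80 and 0.44, and that of Vim to Cd68 by 0.72. The Vim to Cd68 ratio barely separated, at 53.2 in control 1 and 55.4 in Mn-exposed 13, a gap within counting error. Counting error alone gives this ratio an SD on the log2 scale of about 0.25 in controls and 0.27 in Mn-exposed samples. Gfap to S100b was 0.514, 0.25 and 0.307 in controls and 0.608, 0.636 and 0.34 in Mn-exposed samples, which overlapped (difference 0.58, two-sided exact permutation p = 0.2). Vim relative to Gfap also overlapped, so the filament genes did not separate the groups relative to each other.

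S100b, a gene of astrocytes, and Aif1, of microglia, had the most similar pattern of any pair of members. Distances between other genes were not computed, so how common such a likeness is was not tested. The root mean square difference of their centred log2 CPM over the 6 libraries was 0.0991, against 0.259 for the next pair, Aqp4 and Aif1. There were 77.7, 79.7 and 78.5 S100b counts per Aif1 count in control 1, 2 and 4, against 77.9, 84.2 and 67.2 in Mn-exposed 13, 14 and 17. This ratio did not separate the groups (log2 difference -0.05, two-sided exact permutation p = 0.8). Its SD among controls, 0.02 on the log2 scale, was below the 0.06 that counting error alone gives on average. Vim was nearest to Aqp4 (0.274), Gfap to Vim (0.38), and Cd68 and the Itgam gene model to S100b (0.286 and 0.321).

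**Figure D5:**
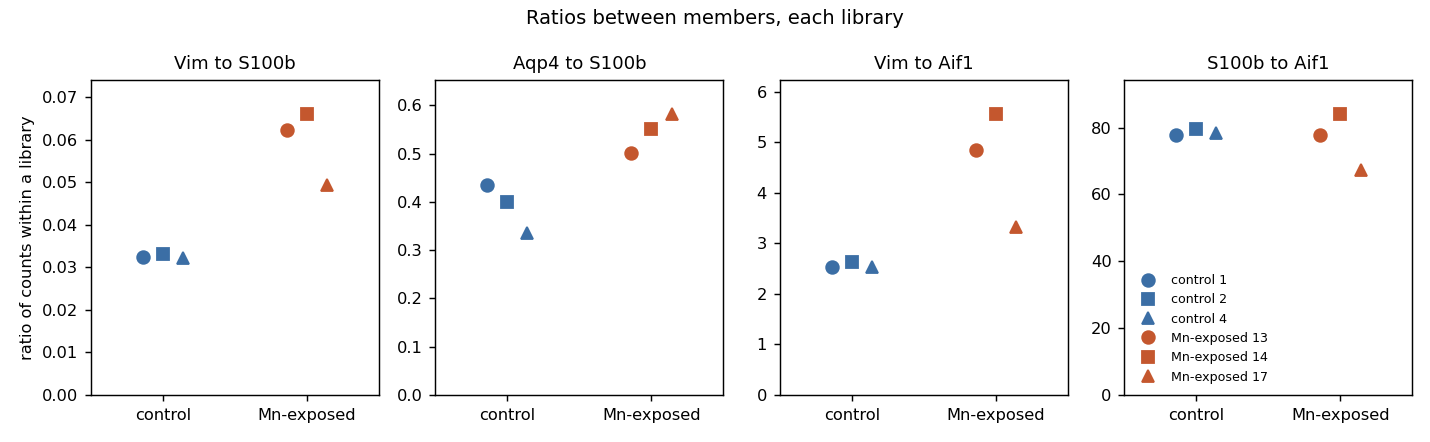
Ratio of counts of 2 members within each library (y axes, starting at 0) for 4 pairs, in control (blue) and Mn-exposed (orange) libraries. Vim to S100b, Aqp4 to S100b and Vim to Aif1 are higher in every Mn-exposed library than in any control, while S100b to Aif1 overlaps, at 67.2 to 84.2.

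Mn-exposed 14, with the lowest mtDNA share and the highest value of the principal component, had the lowest Aif1, Cd68 and Itgam gene model, but the second highest Vim and the third highest Gfap. Control 1, with the highest share and the lowest component value, had the highest Gfap, Aqp4, S100b and Aif1. Mn-exposed 13, with a share below that of every control and a component value near that of control 1, was among the 2 highest libraries for all 7 genes. Their part in the results was not tested.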

How the data were processed

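Poly(A)-selected libraries (NEBNext Ultra RNA kit) were made from RNA of 6 striatum samples, isolated on RNeasy Plus Mini columns, per the labels' protocols. The authors deposited whole-number counts of reads per gene, not normalised. STAR 2.5.2b, bcl2fastq 2.17, DESeq2 and Rnor_6.0 are listed in the submitters' processing notes. How reads were counted, with or without strand and with several matches, is not given in the sources used here, so reads of paralogs may be split. Exon positions and summed length (another deposited column, given per the file headers) were used for levels per length. A table of the whole series differed from the sample files in 0 cells.

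The 7 members and the lists were chosen with earlier results of these data known, although the rule for members used no measured value. The rule for named genes was to name all 7 and, for each, the member with the nearest pattern. Lists of further astrocyte, microglia, leukocyte, neuron, oligodendrocyte and vessel genes were drawn up by symbol. They were not analysed here, and neither were striatal markers, since 0 of 32552 identifiers matched the RefSeq table and the files do not pair identifiers with names.

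Counts were filtered with filterByExpr (15252 genes kept), given TMM scaling and compared by the robust quasi-likelihood F-test of edgeR 4.0.16 (R 4.3.3, no block) with Benjamini-Hochberg adjustment over all genes. The common biological coefficient of variation was 22.8%. Alternatives were 2 other scalings (DESeq2 size factors, plain library size), no mtDNA features, other filters, DESeq2 1.42.0, limma-voom 3.58.1, the ID number as a block, and libraries left out. Deviations from group means of same-numbered samples correlated over genes at 0.417, 0.109 and 0.227, all above the 0.1 set for pairing. Of the samples with different numbers, control 2 beside Mn-exposed 17 (0.274) and Mn-exposed 14 beside control 4 (0.145) were above it too, so Mn-exposed 14 and 17 each correlated best with a control of another number. The block thus rests on these same data, as the labels state no shared litter or day. Libraries of a group differed by 14.91 to 90.77 in chi-square per degree of freedom, so none was counted as a repeat. The edgeR step was tested on simulated data with 200 changed genes. At a fold of 2 it recovered 68 of them (34%), with 16 false calls. At a fold of 4 it recovered 161 (80.5%), with 11 false calls. The changed genes were picked at random from all genes tested. Each gene was drawn independently, without shifts shared by many genes of a library. These rates therefore do not give the power for the members in these libraries.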

Additional observations from a re-analysis of the deposited data

How the results depend on the processing

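The count of members called was 0 in edgeR and under all 16 alternatives, among them the replicate block (0) and DESeq2 with that block (0), which was chosen after seeing the data, as were the alternatives for the ratios. The number of members whose groups do not overlap, 0, was 6 without control 1 and Mn-exposed 13 and 0 to 4 with 1 library left out (2 when control 1 was dropped, 4 for Mn-exposed 13 and 1 for Mn-exposed 17). Fewer libraries separate more easily: 24.4%, 37% and 15.9% of all genes tested did so in those fits. The number of the 21 pairs of members with separate ratios, 5, was 12 without control 1 and Mn-exposed 13 (57.1%, against 51.3% of all pairs of genes). It was 5 to 8 with 1 library left out. Without control 1 or without Mn-exposed 17 it was 8 (38.1%), against 26.4% and 17.4% of all pairs. Without Mn-exposed 13 or without control 4 it was 7 (33.3%), against 36.8% and 19.9%. Without control 2 or without Mn-exposed 14 it was 5 (23.8%), against 21.6% and 21.8%. Within the 3 ID numbers of the replicate block 7 pairs (33.3%) had a common direction, against 38.2% of all pairs.

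The sign of each log2 fold change held under all 10 alternatives that keep the libraries or drop control 1 with Mn-exposed 13. Leaving out 1 library moved Gfap between -0.27 and 0.80, Aqp4 between -0.12 and 0.40, Cd68 between -0.62 and 0.022 and the Itgam gene model between -0.80 and 0.12, each with changes of sign, and left Vim (0.19 to 0.72), S100b (-0.64 to -0.15) and Aif1 (-0.57 to -0.10) on the same side of 0. The cause was not tested. Scaling by plain library size moved Vim to 0.60 and S100b to -0.27, with 0 called. Counting error was largest for Cd68, with an SD of 0.25 on the log2 scale against 0.42 between libraries of a group, and was at most 0.07 for the other members.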
